A study of Caenorhabditis elegans with 9 samples.

Results

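The autosome arms described here are the outer parts of chromosomes II, III, IV and V of Caenorhabditis elegans, as seen in NanoDam peaks of 2 transcription factors, EGL-43 and FOS-1, read from the dopaminergic neurons of L3 larvae. A peak or region was counted as an arm member when its midpoint lay outside fixed bounds, which are below 4.88 or above 12.02 Mb on II, 3.72 or 10.34 Mb on III, 3.90 or 12.97 Mb on IV, and 5.90 or 16.55 Mb on V. The arms held 1361 of the 5165 deposited regions, 633 of EGL-43 and 728 of FOS-1, and 1527 of the 6045 peaks in the 6 replicate lists. With the largest peak end in any list taken as the end of each chromosome, left arms made up 18.4 Mb, right arms 15.5 Mb and centres 33.5 Mb, so arms were 50.3% of the sequence compared.

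All worms carried bmd261, a single-copy transgene in which a promoter active in dopaminergic neurons drives a nanobody against green fluorescent protein (GFP) fused to the methylase Dam. The promoter thus sets which cells are read. Control worms (strain TV27654) carried bmd261 alone, the EGL-43 worms (TV27655) also carried egl-43(wy1449), which labels the endogenous factor with GFP, and the FOS-1 worms (TV27857) carried fos-1(wy1539) in the same role. Each group had 3 libraries, each from about 5000 worms grown for 24 h on food at 25 °C, after 3 generations on bacteria that lack Dam methylation. Each list of peaks rests on 1 tagged library and the control with its number, so lists of equal number share a control across the factors. Read depth is unknown here, peaks were not placed in genes, and the labelled cell type could therefore not be checked against its markers. Fewer labelled cells and less methylation per cell cannot be told apart in such bulk libraries.

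Dam methylates adenine in the sequence GATC, and NanoDam reads the places where the GFP-tagged factor brings Dam close to DNA. EGL-43 is a zinc finger factor of the EVI1 family, and FOS-1 is the worm member of the Fos family of basic leucine zipper proteins. Worm chromosomes have no single centromere, and their arms are told from the centres by other features: arms recombine more often, hold more repeats, carry more histone H3 lysine 9 methylation and lie nearer the nuclear envelope, whereas centres hold most of the widely expressed, conserved genes.

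No region of either factor lay across a bound. Over the 16 combinations of factor and bound, the nearest arm region lay 3.91 to 207 kb from it and the nearest centre region 9.78 to 189 kb. The closest pair was on the left of chromosome V, where the FOS-1 region from 5895348 to 5896841 counted as arm and the one from 5909142 to 5910410 as centre.

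Peaks were sparser on the arms than in the centres in all 6 lists. EGL-43 arms held 7.17, 8.999 and 5.40 peaks per Mb in replicates 1, 2 and 3, against 14.9, 11.6 and 11.7 in the centres. FOS-1 arms held 9.56, 7.97 and 5.96 peaks per Mb, against 11.4, 12.0 and 10.3 in the centres. The highest arm density, that of FOS-1 replicate 1, lay below the lowest centre density, that of FOS-1 replicate 3, so arms and centres did not overlap. The mean log2 ratio of arm to centre density was -0.70 ± 0.35 (SD, n = 6 lists), or 0.617-fold (exact sign-flip test, two-sided p = 0.03125, the lowest that 6 lists allow). Adjusted over the 6 planned sign-flip tests the p-value was 0.125, and over all 14 sign-flip tests it was 0.0625, so neither passed 0.05. Lists that share a control are not independent, and with each number counted as 1 unit the smallest possible p-value was 0.25.

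**Figure D1:**
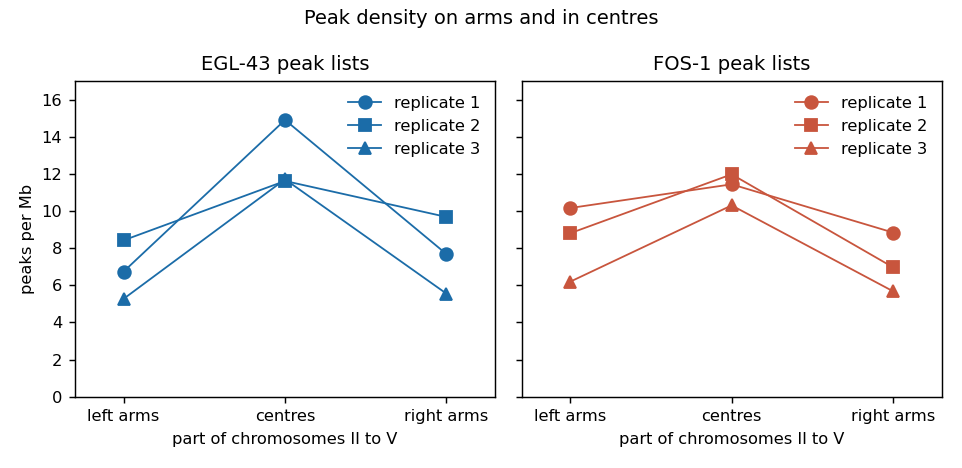
Peaks per Mb (vertical axis) on left arms, in centres and on right arms of chromosomes II to V, with 1 line per peak list and 1 panel per factor. Every list peaks in the centres, between 10.3 and 14.9 peaks per Mb, and no arm value exceeds 10.2.

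The lower arm density held on each chromosome, with 6 of 6 lists lower on the arms of II, III, IV and V. Over both factors the ratio was 0.516-fold on II, 0.621-fold on III, 0.609-fold on IV and 0.682-fold on V (exact sign-flip test for each, p = 0.03125, adjusted over all 14 tests 0.0625). The order of the chromosomes was not tested and differed between the factors, with the lowest mean log2 ratio on II in EGL-43, at -1.21, and on IV in FOS-1, at -0.71. Single lists came close to equality on chromosome V, where EGL-43 replicate 2 had 10.5 peaks per Mb on the arms and 11.0 in the centre. EGL-43 replicate 3 stood at the other end there, with 3.23 peaks per Mb on the arms against 8.83 in the centre.

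The factors did not separate by arm density. EGL-43 arms held 7.19 ± 1.80 peaks per Mb and FOS-1 arms 7.83 ± 1.80 (SD, n = 3 lists each), and the difference was -0.639 (exact permutation test, two-sided p = 0.7; 3 lists against 3 cannot go below 0.1). This difference changed sign without EGL-43 replicate 3, to 0.256, and without FOS-1 replicate 1, to 0.226. Of a list's peaks on II to V, arms held 36.2% ± 6.75 in EGL-43 and 41.0% ± 4.50 in FOS-1 (SD, n = 3 each), below the arms' share of the sequence in all 6 lists. In both factors replicate 3 had the sparsest arms, and it was also the shortest list. EGL-43 replicates 1 to 3 had 1111, 1081 and 909 peaks in the whole series, and FOS-1 replicates 1067, 1045 and 832. In the centres replicate 3 was the sparsest list in FOS-1 but not in EGL-43.

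Left and right arms were then compared. Summed over the chromosomes, EGL-43 left arms held 6.74, 8.42 and 5.27 peaks per Mb in replicates 1 to 3 and right arms 7.68, 9.68 and 5.55, so the right arms were denser in 3 of 3 lists. FOS-1 left arms held 10.2, 8.80 and 6.20 peaks per Mb and right arms 8.84, 6.97 and 5.68, so the left arms were denser in 3 of 3 lists. Over all 6 lists the mean log2 ratio of left to right was 0.03 ± 0.22 (SD, n = 6; exact sign-flip test, p = 0.71875). The EGL-43 mean was -0.15 and the FOS-1 mean 0.22, which differ by -0.38 (exact permutation test, two-sided p = 0.1, the lowest attainable; 0.3 adjusted over 6 such differences). The ranges of the factors did not overlap, running from -0.20 to -0.07 for EGL-43 and from 0.13 to 0.34 for FOS-1.

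The chromosomes differed in which arm was the denser. On II the right arm was denser in 6 of 6 lists, with left over right at 0.649-fold, and on III likewise in 6 of 6, at 0.736-fold (exact sign-flip test for each, p = 0.03125, adjusted over 14 tests 0.0625). On IV and V the left arm was denser in 5 of 6 lists each, at 1.48-fold and 1.49-fold (p = 0.09375 and 0.0625 by the same exact test, adjusted 0.119 and 0.0875). The exceptions were EGL-43 replicate 1 on IV, with 5.90 peaks per Mb on the left and 6.69 on the right, and FOS-1 replicate 3 on V, with 6.27 and 7.16. The steepest single contrast was in FOS-1 replicate 3 on IV, where the left arm held 8.21 peaks per Mb and the right arm 2.90. The log2 ratio summed over chromosomes became -0.14 without chromosome IV and -0.18 without chromosome V.

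**Figure D2:**
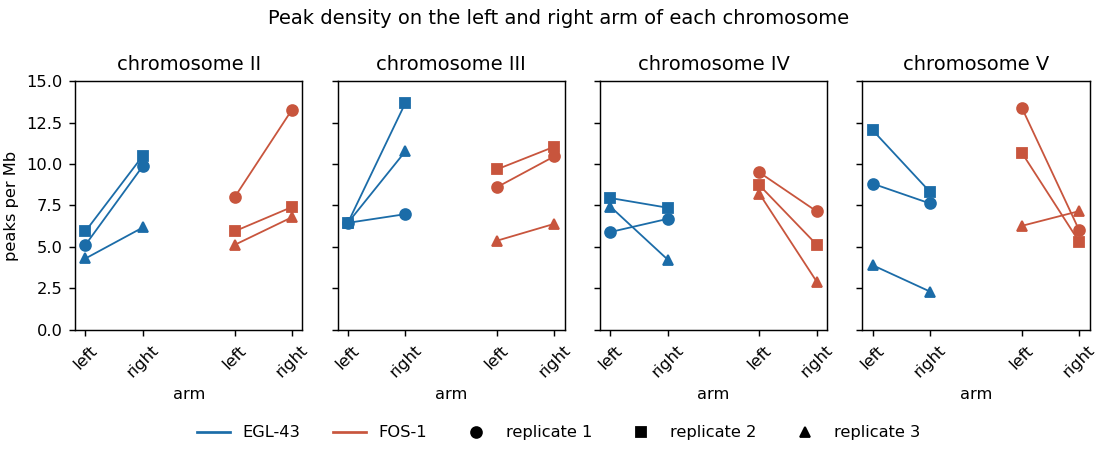
Peaks per Mb (vertical axis) on the left and right arm of each chromosome, with 1 line per peak list, coloured by factor and marked by replicate. All 6 lines go up from left to right on II and on III, and 5 of 6 go down on IV and on V.

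Position along the arm was described in the same way. When each arm was divided at its middle, the outer part held 6.55, 9.21 and 5.37 peaks per Mb in EGL-43 replicates 1 to 3 and the inner part 7.79, 8.79 and 5.43. For FOS-1 the outer part held 8.32, 7.14 and 6.02 and the inner part 10.8, 8.79 and 5.90. The outer part was sparser in 4 of the 6 lists, and no test was run.

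Arm peaks of EGL-43 were narrower than its centre peaks in 3 of 3 lists. Their median widths were 1112, 1169 and 1040 bp on arms against 1268, 1450 and 1248 bp in centres. FOS-1 went both ways, with 1543, 1145 and 2272 bp on arms against 1425, 1385 and 1885 bp in centres. Over the 6 lists the arm median differed from the centre median by a mean of -63.3 bp, less than the SD of 262 bp among lists (exact sign-flip test, p = 0.5625), and the sign changed without replicate 2, to 35.3 bp higher. The authors' score, used only as a percentile within a list, averaged 1.68 percentile points higher on arms (SD 4.79, n = 6 lists; p = 0.4375 by the same exact test). FOS-1 replicates 1 and 3 were 6.84 and 8.01 points higher on arms, and in the other lists the arm minus centre value lay between -3.46 and 1.61.

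The widest peaks on chromosomes II to V lay on the arms and came from FOS-1. Of the 8 peaks over 15 kb on these chromosomes, 6 were on arms, 4 in FOS-1 replicate 1 and 2 in FOS-1 replicate 3, and the other lists had 0 there. They made up 21.1% of the arm base pairs of FOS-1 replicate 1 and 26.7% of those of replicate 3. FOS-1 arms had 2.40%, 1.09% and 2.34% of their length under peaks in replicates 1 to 3, against 2.09%, 1.88% and 2.33% in centres, so replicates 1 and 3 covered as much of the arms as of the centres or more. EGL-43 arms had 0.867%, 1.22% and 0.654% covered, against 2.23%, 1.95% and 1.72% in centres.

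**Figure D3:**
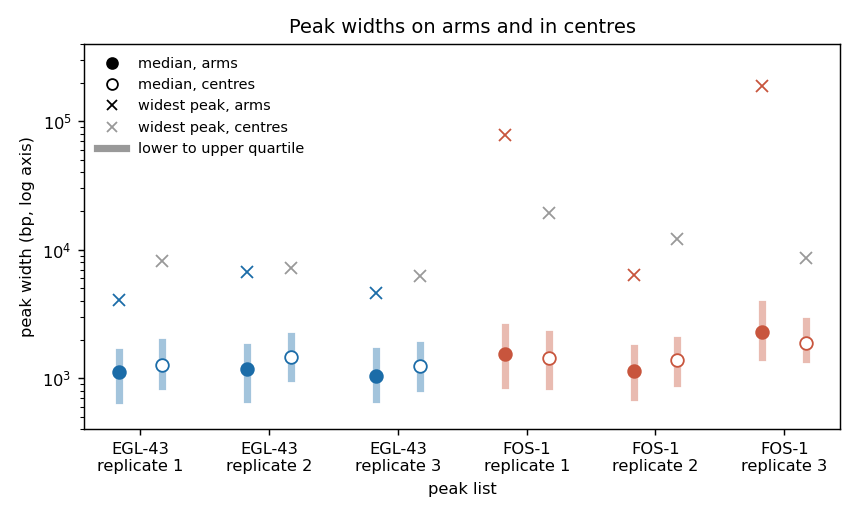
Peak width in bp (vertical log axis) for each list, with circles for medians (filled for arms, open for centres), bars from the lower to the upper quartile and crosses for the widest peak. Medians stay between 1040 and 2272 bp in all lists, while the widest arm peaks of FOS-1 replicates 1 and 3 reach 78122 and 187122 bp.

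Outside a single stretch on III, the wide arm peaks were one of 25104 bp on the right arm of II, from 13788198 to 13813301 in replicate 3, and one of 16030 bp on the left arm of V, from 4637356 to 4653385 in replicate 1. The other 4 lay in that stretch, on the left arm of III from 3014747 to 3207073. FOS-1 replicate 3 covered 187 kb of it with 1 peak. FOS-1 replicate 1 covered 188 kb with 6 peaks, whose scores stood between percentiles 99.1 and 99.9 of their list. FOS-1 replicate 2 had 5 peaks of at most 3530 bp there, 11.5 kb in all, and the 3 EGL-43 lists had 0. The stretch gave 23.2% and 23.5% of all arm base pairs of FOS-1 replicates 1 and 3, and 3.12% of those of replicate 2.

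Runs of neighbouring peaks were found elsewhere too. Counting peaks each within 10 kb of the next as a run, the arms held 8 runs of 5 or more peaks, among them the FOS-1 replicate 1 peaks of the stretch on III. The longest by count was on the left arm of V in FOS-1 replicate 1, from 4528382 to 4675048, with 22 peaks that covered 63.6% of 147 kb. These were 27.8% of that list's 79 peaks on the arm, and the other 5 lists had 1 or 2 peaks each in the same span. With runs counted as 1 peak each, FOS-1 left arms were still denser than right arms in 3 of 3 lists and EGL-43 right arms in 3 of 3.

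A pair of runs near the left end of IV had evenly spaced peaks. FOS-1 replicate 3 had 5 peaks of 1012 bp each between 892180 and 909800, and their starts were 4152, 4152, 4153 and 4152 bp apart. EGL-43 replicate 3 had 5 peaks between 892500 and 910148, of which the first 3 were 1040 bp wide and the first 4 started 4152, 4152 and 4153 bp apart. The other 4 lists had 0 peaks there, so the runs went with the lists made against control library 3. The scores differed between the factors, at percentiles 28.1 to 33.7 of the EGL-43 list and 1.02 to 1.44 of the FOS-1 list. As deposited, they ran from 3.36 to 3.42 in EGL-43 and from -0.05 to 0.02 in FOS-1. Neighbouring arm peaks within 10 kb of each other and of equal width were otherwise seen for 1 pair, in EGL-43 replicate 1 on III.

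Number 3 lists also met on the right arm of V. FOS-1 replicate 3 had a run of 6 peaks from 17115415 to 17144033, with scores from -2.45 to 5.08. EGL-43 replicate 3 had 3 peaks in the same span, including the highest-scoring peak of its whole list, with a score of 7.75. The remaining 4 lists had 0. Of the FOS-1 replicate 3 peaks, 8 on arms and 1 in the centres had a score below 0, and no other list had any on these chromosomes.

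**Figure D4:**
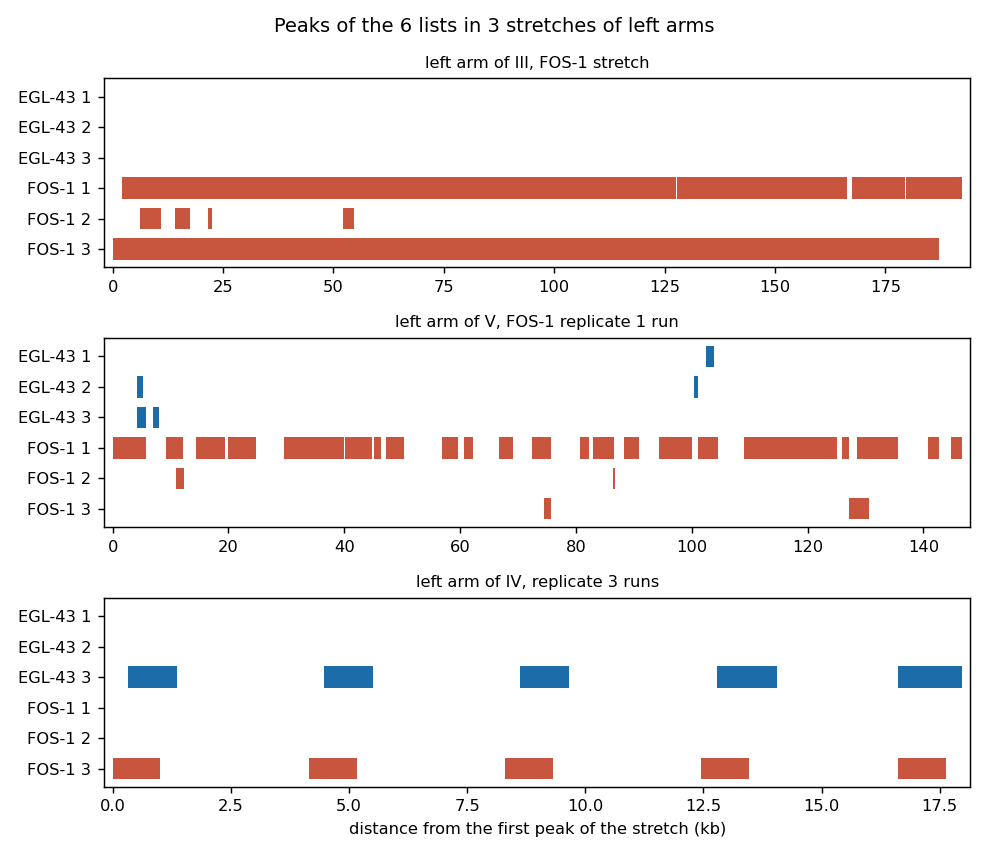
Peaks of the 6 lists (rows) as bars along 3 stretches of left arms, with distance in kb from the first peak on the horizontal axis. On III the bars of FOS-1 replicates 1 and 3 fill nearly the whole 192 kb (gaps between the 6 peaks of replicate 1 are mostly too small to see), on V FOS-1 replicate 1 has 22 peaks, and on IV both replicate 3 lists show 5 evenly spaced peaks.

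Replicates of EGL-43 shared fewer of their peaks on the arms than in the centres. The share of arm peaks that overlapped a peak of another EGL-43 list by at least 1 bp was 22.2%, 19.0% and 29.5% in replicates 1 to 3, against 32.1%, 35.0% and 40.1% in the centres. For FOS-1 it was 15.1%, 14.8% and 13.9% on arms against 20.1%, 18.7% and 13.3% in the centres, so replicate 3 went the other way by 0.528 points. Over the 6 lists the arm minus centre difference averaged -7.45 percentage points, with an SD of 5.83 (exact sign-flip test, p = 0.0625). Adjusted over the 6 planned tests the p-value of this sign-flip test was 0.125, and over all 14 tests 0.0875. The mean difference was -12.1 points in EGL-43 and -2.78 in FOS-1, and the lists of the factors did not overlap (exact permutation test between the factors, p = 0.1, the lowest attainable; 0.3 adjusted over 6 differences). Each share counts overlaps with the other lists of its factor, so the values of a factor rest on the same pairs of lists. They are not independent, which neither the sign-flip test nor the permutation test took into account. The EGL-43 lists also covered less of the arms than of the centres, as given above, and the part of that coverage in the lower share was not tested.

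Most arm regions were seen in 1 replicate. A peak of a single replicate lay under 565 (89.3%) of the 633 EGL-43 arm regions, peaks of 2 replicates under 49, and peaks of all 3 under 19 (3.00%). Over all nuclear chromosomes 5.25% of EGL-43 regions were in 3 lists and 16.6% in 2 or more, against 10.7% in 2 or more on the arms. The centres had 65 of 1007 (6.45%) in 3 lists and the X chromosome 27 of 445 (6.07%). For FOS-1, 679 of 728 arm regions (93.3%) rested on a single replicate, 44 on 2 and 5 (0.687%) on all 3. The share over all nuclear chromosomes was 0.521% in 3 lists and 8.12% in 2 or more, and on the arms 6.73% were in 2 or more. These shares were not tested, since each factor has 1 set of regions.

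The 19 EGL-43 regions in 3 lists are given by arm as counts, with no test of their spread. The left arm held 3 of 65 regions on II, 5 of 56 on III, 2 of 66 on IV and 2 of 135 on V. The right arm held 1 of 76 on II, 4 of 91 on III, 2 of 68 on IV and 0 of 76 on V. The 49 arm regions in 2 EGL-43 lists were divided nearly equally among the pairs of replicates, with 17, 16 and 16. For FOS-1 the pair of replicates 1 and 2 gave 21 of 44, replicates 1 and 3 gave 15, and replicates 2 and 3 gave 8.

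Overlap was also measured in base pairs. The Jaccard index, the sequence covered by both lists as a share of that covered by at least 1 of them, was lower on arms than in centres for 13 of the 15 pairs of lists. EGL-43 pairs had 0.0441, 0.0733 and 0.0620 on arms and 0.102, 0.128 and 0.116 in centres. The FOS-1 pair of replicates 1 and 3 had 0.149 on arms, the highest of all 15, and 0.0181 in centres. The other exception was FOS-1 replicates 2 and 3, with 0.0258 and 0.0135. Without peaks over 15 kb the mean index of the FOS-1 arm pairs went from 0.0677 ± 0.0701 to 0.0199 ± 0.0015 (SD over 3 pairs, which share lists). The EGL-43 mean was 0.0598 ± 0.0147 with and without them. The index depends on how much sequence the lists cover, and EGL-43 lists covered less of the arms than of the centres. The part of coverage in the lower arm indices was not tested.

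**Figure D5:**
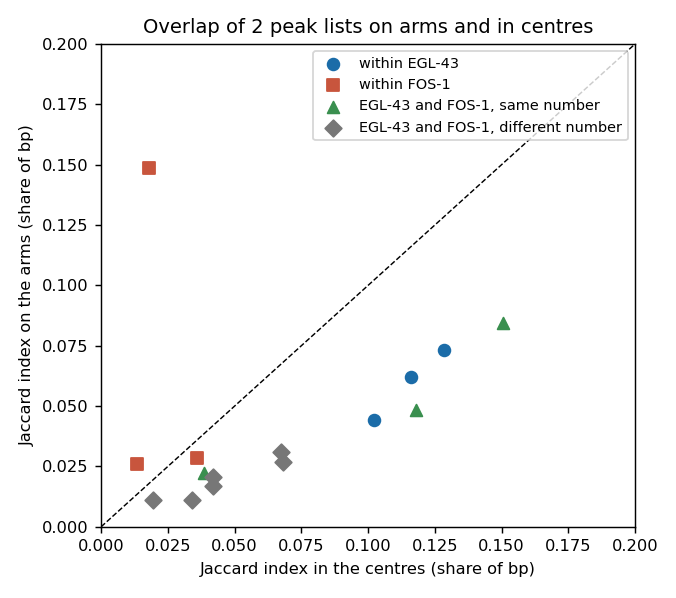
Jaccard index of each pair of peak lists on the arms (vertical axis) against that in the centres (horizontal axis), with marks by kind of pair and a dashed line of equality. Of 15 pairs, 13 lie below the line, and FOS-1 replicates 1 and 3 stand apart at 0.149 on the arms.

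Lists of different factors were compared with and without a shared control. On the arms the 3 same-number pairs had indices of 0.0484, 0.0845 and 0.0225 and the 6 pairs of different number averaged 0.0196, with an SD of 0.0080. An excess of 0.0322 for equal numbers was the highest of the 6 ways of pairing the numbers (exact permutation, one-sided p = 0.167, the lowest attainable). Within-factor pairs exceeded different-number pairs by 0.0441 (exact permutation over 4 splits, one-sided p = 0.25, the lowest attainable), and by 0.0182 without peaks over 15 kb. All 6 indices of different number lay below those of the EGL-43 pairs, and without wide peaks the FOS-1 pairs lay among them.

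In counts of peaks, number 2 had the most peaks in common. There, 68 of 305 EGL-43 arm peaks (22.3%) met a FOS-1 peak of the same number on the arms, and 69 of 270 FOS-1 peaks (25.6%) met an EGL-43 peak. Number 1 had 61 of 243 (25.1%) and 61 of 324 (18.8%), and number 3 had 29 of 183 (15.8%) and 27 of 202 (13.4%). The arm minus centre difference in this share averaged -6.31 percentage points, with an SD of 6.65 (exact sign-flip test over 6 lists, p = 0.0625). Adjusted over the 6 planned tests the p-value of this sign-flip test was 0.125, and over all 14 tests 0.0875. The 2 lists of a number count the same overlaps from each side, so the 6 values are not independent. With each number as 1 unit the exact sign-flip test gave p = 0.25, the smallest that 3 numbers allow. EGL-43 replicate 3 was the exception, with 15.8% on arms and 14.5% in centres. Overlapping peaks of the same number had both bounds alike in 13 of 160 cases (8.13%), of which number 2 gave 10, number 1 gave 3 and number 3 gave 0. Overlapping peaks of the 2 factors with different numbers had both bounds alike in 6 of 132 (4.55%). Within EGL-43 it was 8 of 114 (7.02%) and within FOS-1 0 of 75.

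Of the EGL-43 arm regions, 182 of 633 (28.8%) held a FOS-1 peak, and of the FOS-1 arm regions 182 of 728 (25.0%) held an EGL-43 peak. Over all nuclear chromosomes the shares were 33.1% and 31.2%, and in the centres 35.7% and 35.6%. Among the 182 EGL-43 arm regions, 93 (51.1%) met FOS-1 through lists of the same number only, 40 through lists of different number only and 49 through both. In the centres the same-number share was 154 of 359 (42.9%). The parts of the shared control, and of the differing coverage of arms and centres, in these overlaps were not tested.

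The EGL-43 arm regions found in 3 lists are named by the mean within-list score percentile of their best peak. Positions are as in the deposited lists, and the submitters' processing notes name the build ce10. The first lay on the left arm of IV from 2994407 to 2998524, at percentiles 91.6, 92.7 and 83.7 in replicates 1 to 3, and held a peak of all 3 FOS-1 lists. The FOS-1 peaks there stood at percentiles 24.5, 94.5 and 3.61, so only the one of number 2 ranked as high as the EGL-43 peaks. The second, on the left arm of III from 3696656 to 3699353, lay 22.0 kb inside the arm bound, had percentiles 92.7, 76.4 and 97.7, and met a FOS-1 peak in replicate 2 alone.

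The next EGL-43 regions were on chromosome IV. The region from 1913478 to 1917214 had percentiles 83.7, 86.4 and 81.7, an even ranking, but no base covered by all 3 lists. The region from 16494361 to 16495426, near the right end, had 84.5, 91.2 and 73.5 and likewise no base in common. The region from 14617598 to 14623980 ranked unevenly, with 88.3, 17.6 and 94.7. Of the 19 regions, 15 had a base covered by all 3 lists, and their widths ran from 1066 to 6825 bp.

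No FOS-1 list had a peak in 7 of the 19 EGL-43 regions. The 12 others held one, against 28.8% of all EGL-43 arm regions and 33.1% of those on all nuclear chromosomes. The 19 were wider, with a median of 2850 bp against 1129 bp for all EGL-43 arm regions, and the part of width was not tested. Besides the region on IV from 1913478, the highest of the 7 were on the left arm of V from 3819309 to 3822158, at percentiles 57.5, 76.9 and 59.5, and on the left arm of II from 4130984 to 4136709, at 74.0, 63.0 and 51.7. The region on V kept a peak in 0 of 3 lists at a false discovery rate under 0.001. The 12 others met FOS-1, 6 of them through a single FOS-1 list, 4 through 2 lists and 2 through all 3. Those last were the region on IV from 2994407 and one on the left arm of III from 2531618 to 2535879, with EGL-43 percentiles of 48.7, 34.6 and 74.0.

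FOS-1 had 5 arm regions in 3 lists, and their ranks spread widely. The stretch on III from 3014747 stood first, with best percentiles of 99.9, 75.2 and 96.0. The region on the right arm of V from 19332833 to 19347764 had 51.2, 84.7 and 95.4, with no base in all 3 lists and no EGL-43 peak. The region on the right arm of II from 14088629 to 14091399 had 30.3, 23.7 and 68.4. The region on the left arm of III from 2533219 to 2536512 had 23.1, 32.1 and 51.8 and overlapped the EGL-43 region from 2531618. The last, on the right arm of III from 13651950 to 13655785, ranked low in every FOS-1 list, at 3.80, 7.80 and 2.04, while the EGL-43 peaks it met stood at 68.8 in replicate 2 and 97.1 in replicate 3.

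Merging all 6 lists gave 1174 arm regions, of which 946 (80.6%) came from 1 list, against 74.1% of 1649 in the centres. A peak of every list was held by 2 of the 1174 arm regions and by 3 of the 1649 in the centres. The 2 on arms lay on the left arm of III from 2531454 to 2536512 and on the left arm of IV from 2994407 to 3004696. In the centres 27 of 1649 regions (1.64%) held peaks of 5 lists, and on the arms a further 6 of 1174 (0.511%) did. On right arms these were the regions on II from 14088629 to 14091399, on IV from 14617598 to 14623980, and on III from 11335209 to 11338977, from 13061510 to 13065645 and from 13651950 to 13655785. The sixth was on the left arm of V from 4963640 to 4967457.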

How the data were processed

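The authors deposited 6 peak lists and 2 combined lists of regions. Each peak has a start, an end, a score of unstated scale that the authors gave, and a false discovery rate, at most 0.00963 in these lists. Per the labels, each list rests on 1 tagged library and the control with its number, which pairs lists of equal number across factors. The submitters' processing notes name ce10, minimap2 and SAMtools; the peak caller is not given in the sources used here. Signal tracks and a genome sequence were not used here, so no peak was placed in a gene and no sequence is shown.

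Starts of the combined lists were moved by 1 bp to 1-based positions. Overlap meant at least 1 bp unless stated. The values per list were compared with exact sign-flip tests over 6 lists or exact permutation tests over 3 against 3, in Python 3.11.15 with pandas 2.3.3, tested on simulated lists. The labels do not say whether libraries came from separate cultures, so p-values measure only the spread between these libraries. Benjamini-Hochberg adjustment covered the 6 planned sign-flip tests, and all 14 with those by chromosome. Members, tests and naming rules were chosen with earlier results of these data known. Regions named were, per factor, the 5 highest in mean percentile among arm regions in 3 lists, the 3 highest without a peak of the other factor, those with peaks of all 6 lists, peaks over 15 kb, and regions nearest the bounds. Runs, evenly spaced peaks and regions in 5 or more lists were picked out after their values were seen.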

Additional observations from a re-analysis of the deposited data

Results flagged for a closer look

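Summed over the chromosomes, the log2 ratio of left to right arm density was below 0 in 3 of 3 EGL-43 lists and above 0 in 3 of 3 FOS-1 lists. The factor means differed by -0.38 (exact permutation test, two-sided p = 0.1, the lowest that 3 lists against 3 allow, and 0.3 adjusted over 6 such differences). Under 10 other settings the difference stayed below 0, from -0.65 in base pairs covered to -0.23 with only peaks that reached the median score of their list. The lists of the factors did not overlap in 6 of the 10, and all lists pointed opposite ways in 2, without peaks over 15 kb and with runs counted as 1 peak. The ranges overlapped in the other 4, without chromosome III, IV or V (p = 0.2 for each by the same exact test) and with only peaks of at least the median score (exact p = 0.6). The EGL-43 mean was above 0 in 3 of the 10, at 0.027 with those higher-scoring peaks, 0.028 without chromosome II and 0.048 without chromosome III. On each single chromosome the means of the factors had the same sign, so the factors did not favour opposite arms there. For EGL-43 and FOS-1 these mean log2 ratios were -0.76 and -0.49 on II, and -0.64 and -0.24 on III. They were 0.25 and 0.89 on IV, and 0.50 and 0.66 on V. The factors shared the control libraries.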

How the results depend on the processing

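The mean of the lower arm density kept its direction in all 21 alternatives run, from -0.81 to -0.55 on the log2 scale (adjusted p over 6 tests 0.0625 to 0.75). In base pairs covered it was -0.67 (exact sign-flip test, p = 0.125), and there FOS-1 replicates 1 and 3 were not lower on arms. The lower share of arm peaks found in other lists of a factor kept its direction in the 21 alternatives run for it (-10.0 to -4.28 percentage points). The lower share in the same-number list did so in the 15 run for it (-9.08 to -4.25). Some of these alternatives could not change a value. The replicate block averages the same 6 lists, so the density ratio was again -0.70. Its exact sign-flip test gave p = 0.25, the smallest 3 numbers allow, and no call could change. Keeping only peaks wholly inside an arm or a centre repeated the main values, since 0 peaks lay across a bound. Counting runs of peaks within 10 kb as 1, chosen after seeing the data, changed no direction. The arm score percentile stayed higher, by 0.118 to 3.51 points, and both Jaccard differences stayed above 0. The left to right ratio had no stable direction. It was -0.022 with chromosomes divided into 3 equal parts and the outer ones as arms, -0.14 without chromosome IV and -0.18 without chromosome V, and -0.028 to 0.080 leaving out single lists or numbers, below 0 without FOS-1 replicate 1 or 2. The EGL-43 minus FOS-1 arm density ran from -1.57 to 0.256 when lists were left out (above 0 without EGL-43 replicate 3, FOS-1 replicate 1 or number 1), and the arm minus centre width from -153 to 35.3 bp; the cause was not tested. The 19 EGL-43 and 5 FOS-1 arm regions in 3 lists moved by construction with what counted as support. EGL-43 had 10 at a false discovery rate under 0.001, 6 with only peaks that reached the median score of their list, 40 with 3 equal parts, 10 without chromosome III and 68 in 2 or more lists. FOS-1 had 2 among the higher-scoring peaks, 2 without chromosome III, 49 in 2 or more lists and 3 with a base in all 3 lists. Leaving out each number in turn and asking for both other lists gave 34 to 35 and 13 to 25. Of 13 named regions, 11 kept 3 lists at the stricter rate and 8 among the higher-scoring peaks. Read depth is unknown, so an absent peak cannot be told from low coverage.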
